A study of Rattus norvegicus with 8 samples.

Results

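The AMPA and kainate receptor subunits are the protein building blocks of the ionotropic glutamate receptors that carry fast excitatory transmission. The 9 genes Gria1 to Gria4 and Grik1 to Grik5 were taken by symbol from the gene names of an expression array. They had 14 probes of the 30367 probes on the array, and all 14 passed the filter on dim probes that left 23678 probes for testing. RNA came from the lumbar L6S1 spinal cord of male Wistar rats, 12 weeks old. The stressed rats (n = 4) sat on a platform surrounded by water for 1 h a day over 10 days (water avoidance, WA, stress), and tissue was taken 24 h after the last session. The control rats (n = 4) were handled over the same days. Each rat had 1 one-colour array.

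AMPA receptors are tetramers of GluA subunits encoded by the Gria genes, and they carry most of the fast synaptic current evoked by glutamate. Editing of the Gria2 transcript makes channels that contain this subunit poorly permeable to calcium. Kainate receptors are built from the products of Grik1 to Grik3, with Grik4 and Grik5 encoding subunits that need one of those as a partner, and they act at both sides of the synapse. Both families are present in the dorsal horn, where they respond to glutamate released by primary afferents, including those from the viscera.

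Values are log2 signals after subtraction of each array's 75th percentile, here called scaled log2, and a difference of 1 is a factor of 2. Brightness depends on the probe, so no subunit is ranked against another. Adjusted p-values are from limma with Benjamini-Hochberg adjustment over all 23678 probes, and the threshold was a false discovery rate (FDR) of 0.1.

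Some arrays stood apart from others of their group. Control replicate 2 lay at 46.1 on the first principal component, beside the stressed arrays (8.2 to 34.5) and away from the other controls (-56.2 to -39.4). The same array differed from the other controls in the 5' minus 3' difference, the median over 2027 transcripts of the signal at their most 5' probe minus that at their most 3' probe, centred per transcript. It was 0.19 in control replicate 2, 0.09 to 0.16 in the stressed arrays and -0.27 to -0.16 in the other controls. The stressed arrays were in the upper slide row and the controls in the lower one, so slide row and stress cannot be told apart. The Hox genes of the lumbosacral cord were above background on every array, but stressed replicate 3 was low in Hoxa10 (-3.46, against 0.28 to 0.36 in controls). Hoxc11 was not on the list of lumbosacral Hox genes and is named because its pattern was among those most like a Gria2 probe (below). It was at -5.09 in stressed replicate 3 and -2.59 in stressed replicate 2, and between -0.55 and 0.03 in the other 6 arrays. Whether RNA quality had a part in the position of control replicate 2, or the level of dissection in the Hox values, was not tested, and the label of control replicate 2 could not be checked from the files. Results are therefore also given without control replicate 2, and without stressed replicates 2 and 3.

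None of the 9 genes was called in the comparison of stressed with control rats. At FDR 0.1 the count was 0 of 14 probes, against 3.74% of all probes, and at an unadjusted p below 0.05 it was 3 of 14 (21.4%), against 20.3% of all probes. The groups overlapped at every member probe. They did not overlap at 12.1% of all probes, a share that would give few such probes among 14. The differences were positive at 7 probes and negative at 7, with a median of -0.02 beside 0.06 over all probes. The 3 probes with an unadjusted p below 0.05 were both probes of Grik2 and 1 probe of Gria4, each with a positive difference. Without control replicate 2, limma called 5 of 14 probes (35.7%), but it then called 42.4% of all probes. The 5 were both Grik2 probes, the Grik3 probe and 1 Gria4 probe, which were higher, and 1 Gria3 probe, which was lower. With arrays weighted by their fit, which gave control replicate 2 a weight of 0.107, 7 of 14 were called beside 50.6% of all probes. Without stressed replicates 2 and 3, no member and no other probe was called (0%, with 2158 probes at an unadjusted p below 0.05 in limma).

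**Figure D1:**
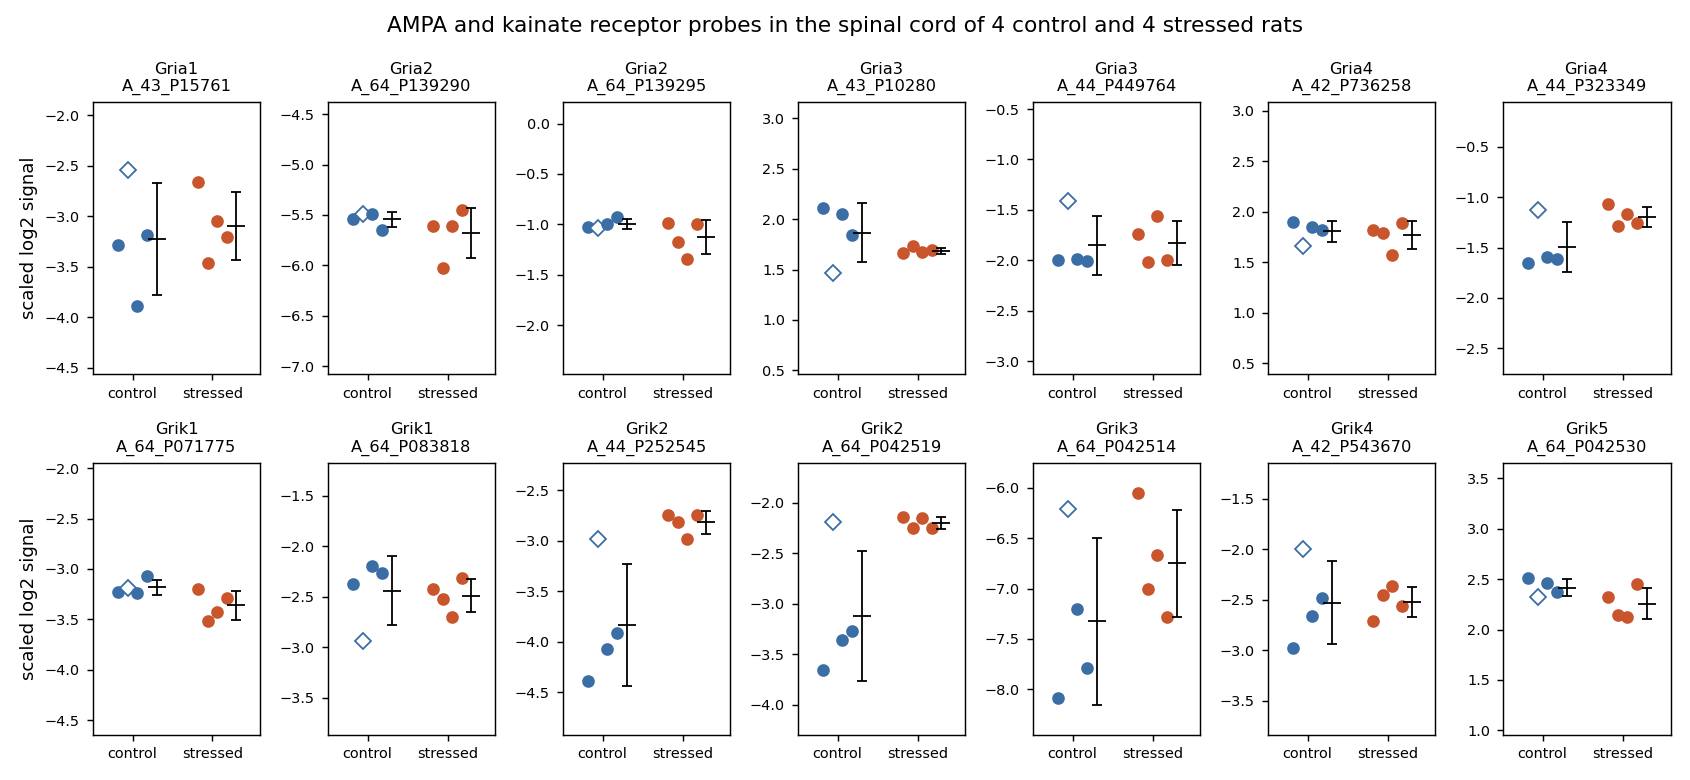
Scaled log2 signal (y axis) of the 14 AMPA and kainate receptor probes in the 4 control (blue) and 4 stressed (orange) rats, each panel spanning the same range of log2 units, with black bars for mean and SD and the open diamond for control replicate 2. The groups overlap in every panel, and in the Grik2 panels control replicate 2 lies with the stressed rats.

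Sequences are printed for 1 probe each of Grik2, Gria2, Gria3 and Gria4. Grik2 had the largest differences, and the probes of Gria3 and of Gria4 behaved differently within each gene. The Gria2 probe is given for comparison with the Gria3 probe. The Grik2 probe A_64_P042519 (rn4, chr20:53231518-53231577, minus strand) reads through the end of the coding sequence, and it is given here up to its stop codon, in capitals. The Gria2 probe A_64_P139295 (chr2:172269214-172269273) and the Gria3 probe A_44_P449764 (chrX:3459714-3459773), both on the minus strand, cover matching stretches of paralogous genes. Placed without gaps they overlap over 50 bases, of which 36 are identical, and capitals mark the 14 that differ. The Gria4 probe A_44_P323349 (chr8:957385-957444, minus strand) is given without marks.
Grik2 A_64_P042519: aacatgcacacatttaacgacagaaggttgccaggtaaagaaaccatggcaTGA
Gria2 A_64_P139295: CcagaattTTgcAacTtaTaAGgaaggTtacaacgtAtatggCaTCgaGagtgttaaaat
Gria3 A_44_P449764: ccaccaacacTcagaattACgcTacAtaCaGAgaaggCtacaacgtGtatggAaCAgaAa
Gria4 A_44_P323349: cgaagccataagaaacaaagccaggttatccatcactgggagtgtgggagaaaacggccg
The longest run of bases shared by any pair of the 14 probes was 10. The exon or untranslated region behind each of the other probes was not analysed here.

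Gria2, whose edited subunit sets the calcium permeability of AMPA receptors, had a small negative difference at both probes. At A_64_P139295 the control rats, replicates 1 to 4, were at -1.03, -1.04, -1.0 and -0.93. The stressed rats were at -0.99, -1.17, -1.34 and -1.0. The controls lay close together, and only stressed replicates 2 and 3 were below all of them. The difference was -0.12 (SE 0.09, 95% interval -0.34 to 0.09, limma adjusted p = 0.473, n = 4 per group). Without stressed replicates 2 and 3, the arrays low in Hoxc11, it was 0.01. Those 2 arrays were the lowest at this probe and were chosen after the data were seen, so leaving them out was bound to raise the difference. The probe A_64_P139290, which lies 4045 bases further 3' on rn4, gave -0.13 (SE 0.12, adjusted p = 0.558) with all arrays and 0.01 without those 2 arrays. It was above background on every array but dim, with an unscaled signal of 28.6 to 51.3, against 760.2 to 1223.1 at A_64_P139295. Among named genes outside the receptor families, the 5 whose pattern over the 8 arrays was most like A_64_P139295 were Rnase12 (Pearson r = 0.984), Ribc2 (0.978), Aloxe3 (0.975), Hoxc11 (0.975) and Ntrk2 (0.97), out of 17535 probes compared. These are descriptions over 8 arrays. Hoxc11 is named by this likeness, so it is no separate finding that its 2 low stressed arrays were also the lowest at this Gria2 probe. The Gria2 probes had a Pearson r of 0.36 with each other, and at A_64_P139290 stressed replicate 3 was level with stressed replicate 1 (-5.61).

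Gria1, whose product is the GluA1 subunit regulated by phosphorylation at active synapses, was the most variable AMPA subunit. The control rats were at -3.28, -2.54, -3.89 and -3.19, and the stressed rats at -2.66, -3.46, -3.05 and -3.21. Both groups spread over most of the same range, and the highest value was that of control replicate 2. The difference was 0.13 (SE 0.29, 95% interval -0.53 to 0.80, adjusted p = 0.809). Without control replicate 2 it was 0.36 (adjusted p = 0.279). The probe was spotted 10 times per array, and the files map it to no rn4 position.

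The Gria3 probes had different patterns over the arrays. At A_43_P10280 the controls were at 2.11, 1.47, 2.05 and 1.84 and the stressed rats at 1.66, 1.73, 1.67 and 1.69. Except for control replicate 2, the controls were above every stressed rat. The difference was -0.18 (SE 0.14, adjusted p = 0.481) and became -0.31 (adjusted p = 0.0219) without control replicate 2. At A_44_P449764, 7143 bases further 5', the controls were at -2.0, -1.41, -1.99 and -2.01 and the stressed rats at -1.74, -2.02, -1.56 and -2.0. Here control replicate 2 was the highest array, and the difference was 0.02 (SE 0.17, adjusted p = 0.955). Over the 8 arrays the 2 probes had a Pearson r of -0.71. The files assign them to different Gria3 transcript records, and the within-array difference between them differed by -0.20 (stressed minus control) with overlapping groups (exact permutation p = 0.6, adjusted over 8 probe pairs 0.876).

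Gria4 encodes a subunit that gives AMPA receptors fast kinetics, and its probes also differed. A_44_P323349, the more 3' of the pair, was at -1.65, -1.13, -1.59 and -1.61 in controls and at -1.07, -1.29, -1.17 and -1.26 in stressed rats. All stressed values were above 3 of the 4 controls, and control replicate 2 fell among them. The difference was 0.30 (SE 0.13, adjusted p = 0.243), and 0.42 (adjusted p = 0.00546) without control replicate 2. With the arrays' 5' minus 3' values as a covariate it was 0.01 (adjusted p = 0.945), a value that leaned largely on control replicate 2. A_42_P736258, 59531 bases further 5' and assigned to another transcript record, had a difference of -0.04 (SE 0.09, 95% interval -0.26 to 0.17, adjusted p = 0.808). The within-array difference between the Gria4 probes differed by -0.34 (stressed minus control), with overlapping groups (exact permutation p = 0.143, adjusted 0.762), which was the smallest p of the 8 pairs. Over the 8 arrays the Gria4 probes had a Pearson r of -0.58.

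Grik2, which encodes the kainate receptor subunit GluK2, had the largest differences of the 9 genes with all 8 arrays. At A_64_P042519 the control rats were at -3.66, -2.19, -3.36 and -3.27, and the stressed rats at -2.14, -2.25, -2.15 and -2.25. The stressed rats lay within a narrow band that 3 controls did not reach, and control replicate 2 lay inside that band. The difference was 0.92 (SE 0.29, 95% interval 0.26 to 1.58, adjusted p = 0.154). The two-sided exact permutation p was 0.0857, where the smallest value that 4 against 4 rats allow is 0.0286. At A_44_P252545, 892 bases further 3' on chromosome 20, the controls were at -4.39, -2.98, -4.07 and -3.91 and the stressed rats at -2.74, -2.81, -2.98 and -2.74. The same 3 controls were low, and control replicate 2 was level with the lowest stressed rat. The order among the stressed rats differed between the probes. The difference was 1.02 (SE 0.27, 95% interval 0.38 to 1.65, adjusted p = 0.121, exact permutation p = 0.0571). Both probes had a Pearson r of 0.99 over the 8 arrays.

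The arrays' 5' minus 3' difference split them in the same way as Grik2 did. Among the controls only control replicate 2 lay with the stressed arrays, so a fit with this covariate leaned largely on that array. With the covariate the Grik2 differences were 0.18 (adjusted p = 0.363) and 0.34 (adjusted p = 0.236), and the median over all probes moved from 0.06 to -0.05. Without control replicate 2 they were 1.23 (adjusted p = 0.000714) and 1.30 (adjusted p = 0.000931). Without stressed replicates 2 and 3 they were 0.92 (adjusted p = 0.556) and 1.09 (adjusted p = 0.513). The 5 named genes whose pattern was most like A_64_P042519 were Mll1 (Pearson r = 0.998), Gpd2 (0.998), Dhx36 (0.997), B3gnt2 (0.997) and Zdhhc17 (0.996), out of 17535 probes compared. Their own differences were 0.65 (B3gnt2) to 2.36 (Gpd2). The first principal component, which split the arrays in the same way, held 54.1% of the variance. The likeness is therefore a description over the arrays and not a link to Grik2.

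**Figure D2:**
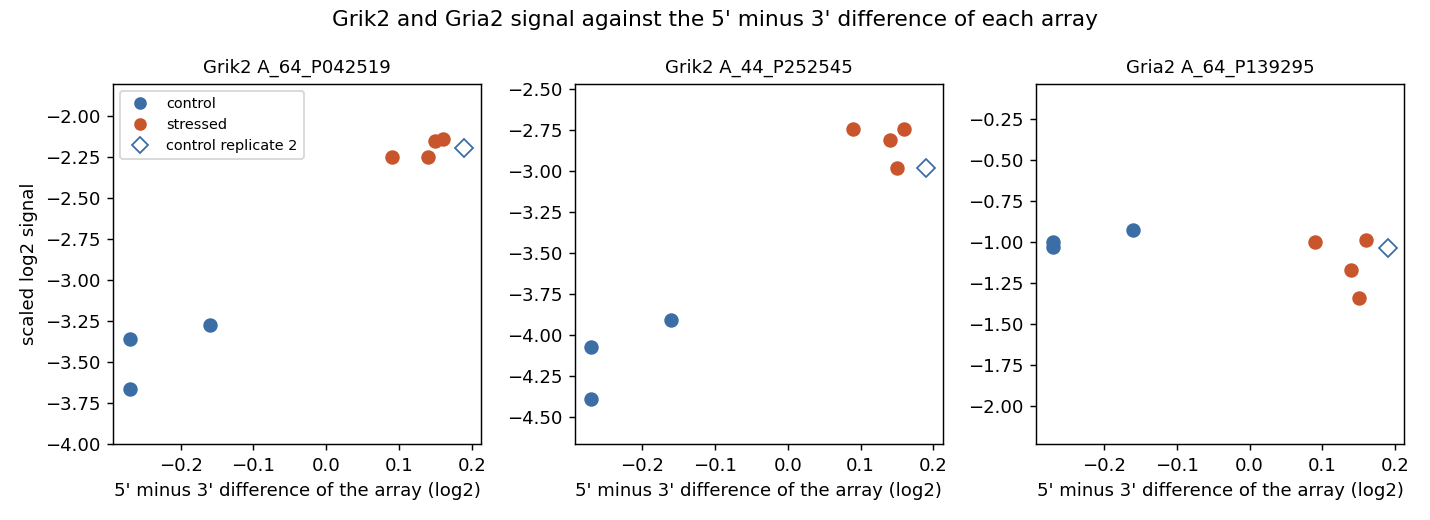
Scaled log2 signal (y axis) of both Grik2 probes and 1 Gria2 probe against each array's 5' minus 3' value (x axis, log2), with 1 point per rat, blue for control and orange for stressed, and the open diamond for control replicate 2. For Grik2 the 3 controls below -0.1 on the x axis are the low points, and control replicate 2, at 0.19, lies with the stressed rats, while the Gria2 points all lie between -1.34 and -0.93.

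The other kainate subunits showed smaller differences. Grik1 (GluK1) had 1 spot per probe on each array. Its probe A_64_P071775 was at -3.23, -3.19, -3.24 and -3.07 in controls and at -3.20, -3.52, -3.43 and -3.29 in stressed rats. The 2 lowest values were stressed replicates 2 and 3, and stressed replicate 1 lay among the controls. The difference was -0.18 (SE 0.09, adjusted p = 0.299), and -0.06 without those 2 arrays. As at Gria2, leaving out the 2 lowest arrays was bound to raise it. The probe A_64_P083818 of another Grik1 transcript record gave -0.05 (SE 0.17, adjusted p = 0.882). The probes of Grik1 had a Pearson r of 0.26 over the 8 arrays.

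Grik3 (GluK3) passed background in 2 control rats and 2 stressed rats only, so its difference of 0.57 (SE 0.43, 95% interval -0.43 to 1.56, adjusted p = 0.472) rests on dim spots. It was 0.94 (adjusted p = 0.0684) without control replicate 2 and -0.32 with the 5' minus 3' covariate. Grik4 and Grik5 encode the high-affinity subunits. Grik4 was at -2.98, -2.0, -2.66 and -2.48 in controls and at -2.71, -2.45, -2.36 and -2.56 in stressed rats, where the controls spread more widely and enclosed all stressed values. The difference was 0.01 (SE 0.20, 95% interval -0.45 to 0.47, adjusted p = 0.98). Grik5 was at 2.51, 2.32, 2.46 and 2.37 in controls and at 2.32, 2.14, 2.12 and 2.45 in stressed rats. Stressed replicates 2 and 3 were below every control, and the difference was -0.16 (SE 0.10, adjusted p = 0.381), and -0.03 without them. They were the lowest arrays for Grik5, so leaving them out was bound to raise the difference.

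**Figure D3:**
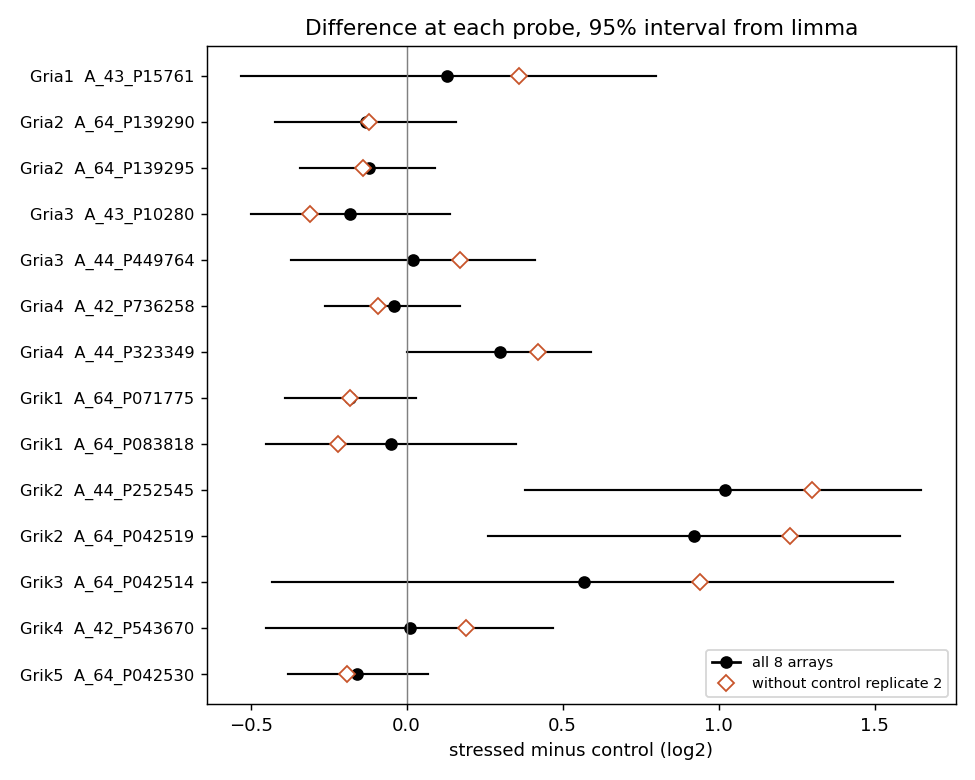
Stressed minus control difference (x axis, log2) at each of the 14 probes, with black points and 95% limma intervals for all 8 arrays and open diamonds for the fit without control replicate 2. The intervals of both Grik2 probes lie above 0, and that of Gria4 A_44_P323349 starts at 0 after rounding. The diamonds of both Grik2 probes, Grik3 and Gria4 A_44_P323349 lie to the right of their points. Those of Gria1, Grik4 and Gria3 A_44_P449764 do too.

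Receptor number and function also depend on proteins that bind, move or modify the subunits. A list of 42 such genes had 38 with a probe and 49 probes tested. Of these, 3 passed FDR 0.1 (6.12%, against 3.74% of all probes), 10 had an unadjusted p below 0.05 (20.4%, against 20.3%), and 6 did not overlap between groups (12.2%, against 12.1%). The median difference was 0.16, beside 0.06 over all probes. The brightest probe of each gene had a median difference of 0.13, with 23 of 38 positive. The summed level of these probes went the other way (5.80 to 5.88 in controls and 5.64 to 5.74 in stressed rats). That sum is of linear signal, so it is weighted to bright probes such as Prkaca A_64_P105515 (control mean 4.67, difference -0.25). Grip1, a scaffold that anchors AMPA receptors, was higher at A_43_P12718. Its control values were -3.09, -3.09, -3.01 and -3.10, and its stressed values -2.64, -2.60, -2.71 and -2.54. Every stressed rat was above every control, and the difference was 0.45 (SE 0.07, adjusted p = 0.0435). The other Grip1 probes gave 0.17 (adjusted p = 0.678) and 0.08 (adjusted p = 0.772). Nptx2, a pentraxin that clusters AMPA receptors outside the cell, was at -0.26, -0.15, -0.60 and -0.47 in controls and at 0.48, -0.06, 0.26 and 0.19 in stressed rats. The groups did not overlap, though the nearest rats were close, and the difference was 0.59 (SE 0.14, adjusted p = 0.0977). Cacng2, which encodes the auxiliary subunit stargazin, was lower, with controls at 3.17, 3.11, 3.11 and 3.08 and stressed rats at 2.95, 2.77, 2.81 and 2.82. All stressed rats were below all controls, and the difference was -0.28 (SE 0.07, adjusted p = 0.0969).

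Leaving out any single array other than control replicate 2 ended these 3 calls, with adjusted p-values from 0.111 to 0.268 in fits that called at most 72 probes in all. The differences themselves stayed between 0.42 and 0.48 for Grip1, 0.50 and 0.68 for Nptx2, and -0.32 and -0.26 for Cacng2. Without control replicate 2 the differences were 0.44 for Grip1, 0.66 for Nptx2 and -0.28 for Cacng2 (adjusted p = 0.00307, 0.0128 and 0.0163), in a fit that called 59.2% of the list beside 42.4% of all probes. The auxiliary subunits of kainate receptors, the RNA editing enzymes and the kinases held no call. The smallest p in each of these groups belonged to Neto2, an auxiliary subunit of kainate receptors (0.20, adjusted p = 0.552), Adar, an RNA editing enzyme (0.51, adjusted p = 0.457), and Prkaca, a catalytic subunit of protein kinase A (-0.25, adjusted p = 0.181). A second Prkaca probe gave 1.08 (adjusted p = 0.27), in the opposite direction. Adarb1, the enzyme that edits Gria2, gave 0.10 (adjusted p = 0.548). No probe was found for Cnih3, Shisa9, Epb41l1 or Lrrtm1.

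**Figure D4:**
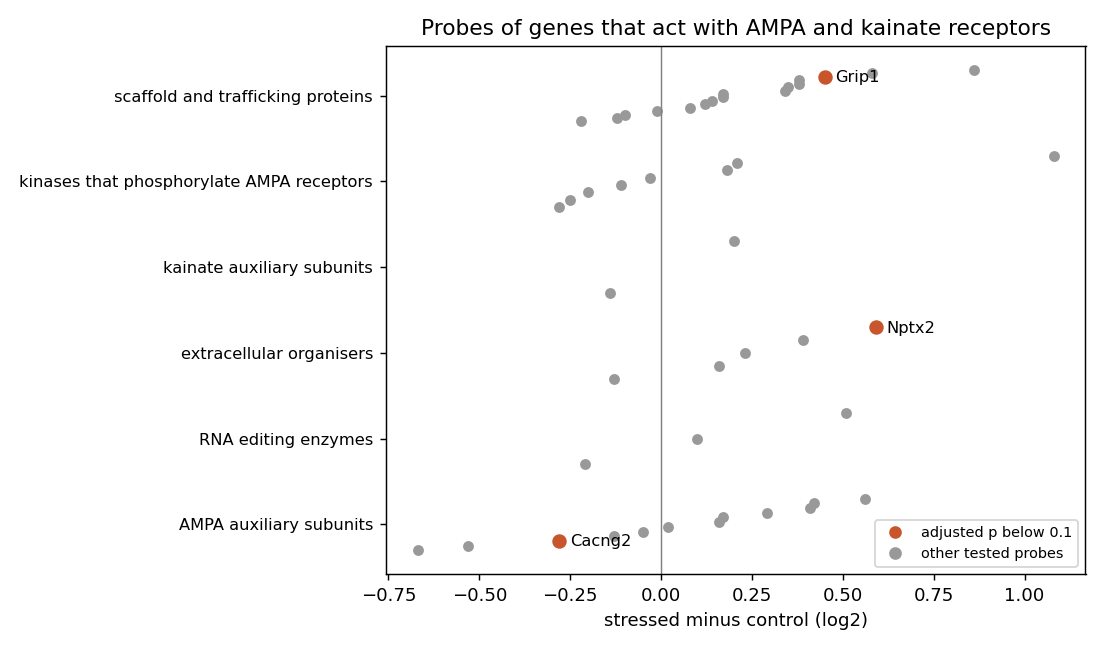
Stressed minus control difference (x axis, log2) of the tested probes of genes that act with AMPA and kainate receptors, for 6 of the 7 groups by role on the y axis, with orange points for an adjusted p below 0.1. Grip1 and Nptx2 lie to the right of 0 and Cacng2 to the left.

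The tissue was a whole spinal segment, so fewer cells of a type and less RNA per cell cannot be told apart. The 7 general neuron markers with a probe had 10 tested probes, of which 6 were positive (59.6% of all probes were). Only 1 probe, for the neuronal enolase Eno2, was called, and it was lower (-0.37, adjusted p = 0.0649). The second Eno2 probe gave -0.04 (adjusted p = 0.934). Nefl (0.57, adjusted p = 0.12) and Snap25 A_64_P019966 (0.40, adjusted p = 0.183) were positive without a call. The summed level of the 7 neuron markers was 7.62 to 7.74 in controls and 7.58 to 7.83 in stressed rats. Slc17a6, the transporter that marks spinal glutamatergic neurons, had a difference of -0.26 (adjusted p = 0.174). Slc17a7 and Slc17a8 were not above background on enough arrays to be tested. The list that holds Slc17a6 and the GABAergic and glycinergic markers had 3 of 7 tested probes positive and no call. Of 10 oligodendrocyte probes 9 were positive and Mog alone was called (0.90, adjusted p = 0.0721), with a summed level of 7.82 to 8.35 in controls and 7.92 to 8.40 in stressed rats. Of 9 astrocyte probes 7 were positive and none was called (summed level 5.52 to 5.81 and 5.64 to 6.11). The 3 endothelial probes were all positive and Pecam1 was called (0.40, adjusted p = 0.0927). Other lists held no call. Differences were negative at 5 of 5 probes for meninges and fibroblasts and 3 of 3 for the lumbosacral Hox genes. Of the motor neuron probes 3 of 4 were negative, but Chat was positive, with the largest difference of that list (0.67, adjusted p = 0.272). Pmp2 and Prx of Schwann cells were also negative, between -1.18 and -0.74. Of 8 microglia probes 6 were positive, as were 4 of 4 probes for oligodendrocyte precursors, and none was called. The part of these markers in the receptor values was not tested.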

How the data were processed

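Total RNA of 8 rats was labelled with Cy3 and hybridised to one-colour Agilent rat arrays. The deposited scanner files were made by the authors with Agilent Feature Extraction 10.7.3.1 and hold spot intensity that was background-subtracted but not normalized between arrays. A deposited value table (medians 243.1 to 275.8) holds the same linear processed intensity, rounded to within 0.05, and gave the same 885 calls once scaled.

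From the 58717 non-control spots, log2 intensity minus each array's 75th percentile was averaged over spots of a probe. Probes well above background in at least 0.5 of their spots on 4 or more of the 8 arrays were kept. The 75th percentile signal was 1751 to 2335 and 23005 to 24066 probes were above background per array. The number of arrays limits the precision. The comparison of stressed with control rats used limma 3.58.1 in R 4.3.3 (lmFit, eBayes). The fit was tested on simulated data. Within-array probe differences used two-sided exact permutation tests over 70 arrangements.

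The text names all 9 genes with every probe, the accessory genes called or with the smallest p in their group, and the 5 gene symbols with the most similar pattern to the brightest probes of Gria2 and Grik2. Hoxc11, Adarb1, the second Prkaca probe and the marker genes named were chosen after their values were seen. The members and lists were chosen with earlier results of these data known. Alternatives covered background, normalization, filter, test, array weights, blocks, a 5' minus 3' covariate, 1 probe per gene name and leaving out arrays. Probe positions are on rn4, as the files give them. Some items of the gene lists are not reported here.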

Additional observations from a re-analysis of the deposited data

Results flagged for a closer look

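Of the sets of 4 control values, 2 held 1 array far from the rest by Dixon's ratio, the gap to the nearest value over the whole range. For Gria4 A_44_P323349 in control replicate 2 the ratio was 0.884, and for Gria3 A_44_P449764 in control replicate 2 it was 0.965. In both sets control replicate 2 was the highest control. Of 28 sets of 4 arrays tested, 2 passed, and chance gives about 1.4.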

How the results depend on the processing

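The count of called probes over the whole array (885, of which 655 were higher and 230 lower) was 215 with normexp background correction, 3010 without the filter, 11983 with array weights, 2318 with the 5' minus 3' covariate and 0 without stressed replicates 2 and 3, an alternative chosen after seeing the data. It was 685 higher and 495 lower after quantile normalization and 740 higher and 556 lower after cyclic loess. Leaving out 1 array gave 0 to 10036, the highest without control replicate 2. The count of called member probes was 1 of 14 (Grik2 A_44_P252545) under several alternatives. These were quantile normalization (4.98% of all probes called), cyclic loess (5.47%), no filter (9.92%) and a robust variance trend (5.47%). The member count was 7 with array weights (50.6%) and 0 to 5 with 1 array left out (0% to 42.4%). The accessory count of 3 became 0 with normexp (0.908% of all probes called), 1 with quantile normalization (4.98%) and 32 with array weights (50.6%). It was 0 without stressed replicates 2 and 3 (0%) and 0 to 29 with 1 array left out (0% to 42.4%). Grip1 A_43_P12718 was not called under normexp, quantile normalization or cyclic loess (limma adjusted p = 0.185, 0.143 and 0.136). With the replicate number, which is also the slide column, as a block, 0 probes were called (4292 at an unadjusted p below 0.05), 0 members and 0 accessory probes. Same-numbered arrays correlated in their deviations at 0.10, 0.12, -0.09 and 0.31, so the numbers were not taken as pairs.

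The differences of both Grik2 probes and Gria4 A_44_P323349 were positive, and those of Grik5 and Grik1 A_64_P071775 negative, under every alternative run. Signs changed at the remaining members under some alternatives. With the covariate, Grik4 was at -0.43, Gria4 A_42_P736258 at 0.09, Gria3 A_43_P10280 at 0.16, Gria3 A_44_P449764 at -0.34, Gria1 at -0.47, Grik3 at -0.32 and Grik1 A_64_P083818 at 0.34. Under quantile normalization Grik4 was at -0.12, Gria1 at -0.02 and Gria3 A_44_P449764 at -0.06, and under cyclic loess at -0.10, -0.01 and -0.06. With normexp Grik4 was at -0.01 and Gria2 A_64_P139290 at 0.06. Without stressed replicates 2 and 3, Grik4 was at -0.10, Gria4 A_42_P736258 at 0.04, Gria3 A_44_P449764 at -0.02, Grik1 A_64_P083818 at 0.07 and the Gria2 probes at 0.01. With 1 array left out the ranges were -0.14 to 0.19 for Grik4, -0.09 to 0.02 for Gria4 A_42_P736258, -0.09 to 0.36 for Gria1, -0.07 to 0.17 for Gria3 A_44_P449764 and -0.22 to 0.03 for Grik1 A_64_P083818. The cause of these changes was not tested, and the values with the covariate leaned largely on control replicate 2. Grik3 is limited by its signal over background.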
